A study of Homo sapiens with 12 samples.

Results

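INTS11, INTS9, INTS4 and BRAT1, the genes of the Integrator cleavage module and of a protein that binds it, were followed in nascent RNA of human U2OS cells. They were taken by exact gene symbol, 4 of the 60583 genes counted. Nascent RNA was measured by TT-seq, which labels RNA made during a short pulse of 4-thiouridine and sequences the labelled fragments, so that reads fall on introns as well as exons. U2OS is an osteosarcoma cell line. The 12 libraries formed 4 groups of 3: U2OS with siCtrl, a control siRNA; U2OS with siINTS11, an siRNA to INTS11; and U2OS-AsiSI with each of these siRNAs. U2OS-AsiSI cells express AsiSI-ER, a fusion of a restriction nuclease to the hormone-binding part of the oestrogen receptor, and both of their groups had 1 hour of OHT (4-hydroxytamoxifen), the ligand that lets the fusion reach the nucleus. All 4 groups were transfected and then sampled at 48 hours. U2OS cells had neither the fusion nor OHT, so the line, the nuclease and OHT differ together between the lines and cannot be told apart. Each siRNA is named only as siCtrl or siINTS11, and remaining INTS11 mRNA and protein were not analysed here.

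Integrator is a large complex that rides with RNA polymerase II and cuts the RNA emerging from it, which ends snRNA transcripts and stops many polymerases soon after the start of protein-coding genes. Its cleavage module has INTS11 as the endonuclease, INTS9 as a partner of the same metallo-beta-lactamase fold that lacks the active site, and INTS4 as the scaffold that holds the pair. BRAT1, first described as a partner of BRCA1 and an activator of ATM, also binds INTS9 and INTS11. The arrangement resembles the CPSF3, CPSF2 and symplekin core that cuts messenger RNA precursors before polyadenylation.

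Total counts ran from 20704611 to 38065726 per library, and counts varied within groups beyond what sampling gives (chi-square over degrees of freedom of 1.84 to 3.06 between replicate pairs). Where the labels number replicates they do not say that these came from separate cultures, so p-values measure the spread between these samples, which may be technical. Of the 7 markers of the labelled cell type, VIM (3975 to 4586 counts), COL1A1, SPARC and RUNX2 were well counted in all 12 libraries, ALPL had 69 to 345 counts, COL1A2 2 to 13 and BGLAP 0. BGLAP lies wholly inside another gene on its strand. The summed level of these 7 was 895 to 944 CPM and 770 to 783 CPM under siCtrl (U2OS, then U2OS-AsiSI) and 650 to 696 and 582 to 640 under siINTS11, with RUNX2 at log2 values of -0.84 and -1.07 and ALPL at 1.47 and 1.31, all called. Among the 5 markers of other cells, ALB (0 to 3 counts) and PTPRC (2 to 7) were near 0, and EPCAM (108 to 201), CDH1 (136 to 264) and PECAM1 (22 to 103) were counted in every library. PECAM1 had log2 values of 1.65 and 1.89 after siINTS11, both called. The summed level of these 5 was 11.2 to 12.3 CPM and 11.4 to 12.5 CPM under siCtrl (U2OS, then U2OS-AsiSI) and 16.4 to 17.9 and 15.1 to 15.4 under siINTS11; the part of either sum in the results below was not tested. In bulk RNA, fewer cells of a type and less RNA per cell cannot be told apart.

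Bases upstream of 3 of the genes are shown because they lie by the start region from which nascent reads begin. The AsiSI recognition site could also lie there in the cells with the nuclease. The RefSeq promoter table (GRCh38.p14; 250 bases before to 50 after each start) matched INTS11, INTS4 and BRAT1, 3 of the 4 genes. Only bases outside every gene annotated in GENCODE release 29 are printed, 5′ to 3′ on the strand of the gene, with motif matches in capitals. For INTS11 these are the 64 bases between its own start and that of CPTP, a gene for a ceramide-1-phosphate transfer protein that runs the other way. They lie at chr1:1324692-1324755 and hold a pair of CCAAT boxes, 1 on each strand.
INTS11: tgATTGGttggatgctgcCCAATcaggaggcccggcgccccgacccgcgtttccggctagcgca
For INTS4 the bases at chr11:77994679-77994918 are shown, with 1 match to the ETS core on the opposite strand.
INTS4: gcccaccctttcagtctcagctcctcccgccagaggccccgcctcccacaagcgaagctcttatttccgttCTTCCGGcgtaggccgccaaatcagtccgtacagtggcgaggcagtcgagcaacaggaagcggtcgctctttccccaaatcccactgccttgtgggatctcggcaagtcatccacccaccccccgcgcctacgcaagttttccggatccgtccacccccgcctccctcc
For BRAT1 the bases at chr7:2555728-2555774 are shown, with 1 GC box on the opposite strand. Its RefSeq window is chr7:2555475-2555774, so these bases are the upstream end of it and do not reach the RefSeq start.
BRAT1: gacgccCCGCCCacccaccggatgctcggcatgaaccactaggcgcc

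Motifs were searched on both strands of the full windows, and no searched motif contains another. The AsiSI site GCGATCGC had 0 matches in each of the 3 windows, and 0.208% of 35116 promoters hold one. The CCAAT box (CCAAT, in 34.6% of promoters) had 2 matches at INTS11 and 0 at INTS4 and BRAT1. The GC box (GGGCGG, in 45.0%) had 5 matches at INTS11, 1 at BRAT1 and 0 at INTS4. The ETS core (CCGGAAG, in 10.3%) had 2 at INTS11, 1 at INTS4 and 0 at BRAT1, and TATAAA, in 11.5% of promoters, had 0 in all 3. The 3 windows thus did not share 1 motif set, and INTS9 had no window to compare. The GC boxes and ETS cores of INTS11 lay outside its printed bases. A match describes these letters and does not show a site in use.

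Gene positions are those of the count tables, on GRCh38 (hg38). INTS11 (ENSG00000127054) covers chr1:1311585-1324691 on the minus strand, 13.1 kb, of which annotated exons make up 62.7%. INTS9 (ENSG00000104299) covers chr8:28767661-28890242, INTS4 (ENSG00000149262) chr11:77878720-77994671 and BRAT1 (ENSG00000106009) chr7:2537810-2555694, all on the minus strand. Exons make up 4.0% of the 123 kb of INTS9, 5.24% of the 116 kb of INTS4 and 37.2% of the 17.9 kb of BRAT1. The module therefore holds a pair of long, intron-rich genes beside a pair of short ones, and the counts differ with it: 212 to 351 reads per library for INTS11, 1050 to 1426 for BRAT1, 1917 to 3806 for INTS9 and 3096 to 5717 for INTS4.

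Per length of gene, BRAT1 was the most and INTS11 or INTS9 the least transcribed of the 4. Levels are given as CPM, read counts brought to a common library size, after scaling by the trimmed mean of M-values (TMM), a factor that lines up the bulk of genes between libraries, and for comparisons between genes they are divided by the gene span in kb. In U2OS with siCtrl, BRAT1 stood at 2.16 CPM per kb, INTS4 at 1.40, INTS9 at 0.874 and INTS11 at 0.739, against a median of 0.482 over 21521 genes. Those levels were at percentiles 84.4, 73.1, 61.5 and 57.9 of all genes. BRAT1 and INTS4 kept the first and second place in all 4 groups, at 2.16 to 2.63 and 1.17 to 1.40 CPM per kb, and no library of either reached those of its neighbour in the order. INTS9 was above INTS11 in every U2OS library. In U2OS-AsiSI their libraries overlapped, at 0.735 to 0.839 for INTS11 and 0.808 to 0.846 for INTS9 under siCtrl, and at 0.688 to 0.724 and 0.679 to 0.741 under siINTS11, where the group means were 0.708 and 0.703.

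**Figure D1:**
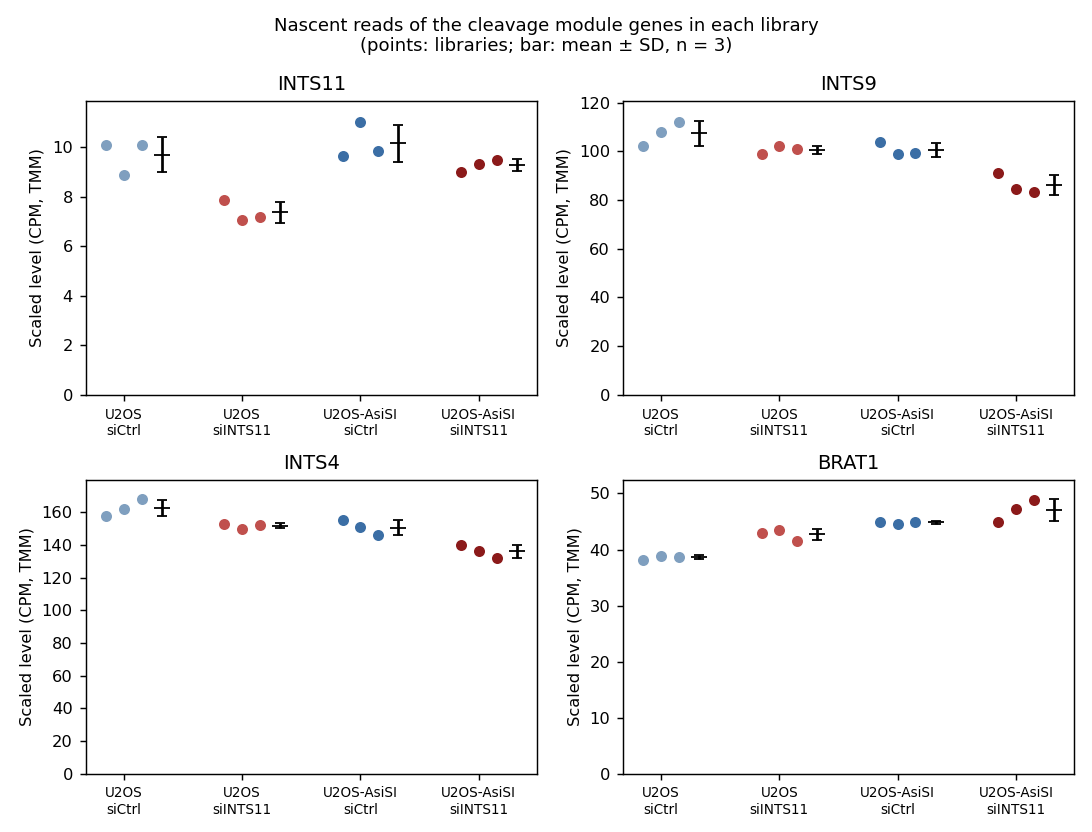
Scaled level (CPM after TMM scaling, linear axis from 0) of INTS11, INTS9, INTS4 and BRAT1 in each of the 12 libraries, by group; points are libraries and the bar beside them is the mean ± SD of 3. INTS11 in U2OS with siINTS11 lies at 7.07 to 7.86, under the 8.88 to 10.1 of siCtrl, while in U2OS-AsiSI the libraries lie at 9.64 to 11 and at 9.01 to 9.49; these positions hold for TMM scaling.

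After siINTS11, nascent INTS11 RNA fell in U2OS and the smaller difference in U2OS-AsiSI did not pass the test. INTS11 is the target of this siRNA, exons make up 62.7% of its span, and exon and intron reads were not counted apart. Less transcription and loss of labelled INTS11 RNA therefore cannot be told apart here. Changes are log2 fold changes of siINTS11 over siCtrl from edgeR's quasi-likelihood test, with Benjamini-Hochberg adjustment over all genes tested and a threshold of 0.05. INTS11 had 277, 314 and 286 reads in the U2OS controls, and 260, 216 and 225 reads after siINTS11. As levels these were 10.1, 8.88 and 10.1 CPM against 7.86, 7.07 and 7.19 CPM. The groups did not overlap, the control in replicate 2 being the lowest of its group. The change was -0.42 (SE 0.09, edgeR adjusted p 6.08e-05), a difference in level of -25.0% (95% interval -33.6% to -15.3%); this fall held its direction under every scaling tried. In U2OS-AsiSI the counts were 284, 351 and 269 against 258, 212 and 277, and the levels 9.64, 11 and 9.83 CPM against 9.01, 9.33 and 9.49 CPM. Here too the groups did not overlap, but they lay close together. The value was -0.13 (SE 0.08, 95% interval -0.30 to 0.04, edgeR adjusted p 0.172), or -8.52% with an interval of -18.7% to 2.88%, and with library totals alone it was 0.06, not called. It was -0.07 without U2OS-AsiSI siCtrl replicate 2 (edgeR adjusted p 0.569) and -0.08 with a mean of at least 50 counts. With both lines in 1 fit the change was -0.26 (SE 0.06, edgeR adjusted p 0.000649), a fit that shares its libraries with the others; library totals alone gave -0.08 there, not called.

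The difference between the lines in the response of INTS11 was tested itself and did not pass after adjustment. It was 0.25 on the log2 scale (SE 0.12, 95% interval 0.01 to 0.49), with an unadjusted p of 0.0382 by edgeR's quasi-likelihood test and an edgeR adjusted p of 0.235. With siCtrl, INTS11 levels of the lines overlapped (9.69 ± 0.699 CPM in U2OS and 10.2 ± 0.736 in U2OS-AsiSI; SD, n = 3). With siINTS11 they did not (7.37 ± 0.426 and 9.28 ± 0.242 CPM; SD, n = 3), and U2OS-AsiSI was higher by 0.37 (SE 0.08, edgeR adjusted p 0.000457). The siINTS11 libraries of U2OS-AsiSI, at 9.01 to 9.49 CPM, lay within the range of the U2OS controls, 8.88 to 10.1 CPM.

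INTS9, the inactive partner of the nuclease, fell after siINTS11 in both lines on the TMM scale, but not with library totals alone. In U2OS the levels were 102, 108 and 112 CPM under siCtrl and 98.8, 102 and 101 CPM under siINTS11. The highest library with siINTS11 nearly touched the lowest control. The change was -0.12 (SE 0.04, edgeR adjusted p 0.00766) or -8.09%, and it was no longer called without U2OS siCtrl replicate 3 (-0.08, edgeR adjusted p 0.101). In U2OS-AsiSI the levels were 104, 99.0 and 99.1 against 90.9, 84.4 and 83.3 CPM, groups well apart. The change was -0.22 (SE 0.05, edgeR adjusted p 0.000159) or -14%. With library totals alone as the scale the values were 0.08 in U2OS, the other direction, and -0.03 in U2OS-AsiSI, neither called. Set against U2OS, the response in U2OS-AsiSI was lower by a log2 value of -0.13 (95% interval -0.26 to 0.00, edgeR adjusted p 0.249), which did not pass.

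INTS4, the scaffold, had almost the same value in both lines. Its U2OS controls stood at 158, 162 and 168 CPM, and the libraries with siINTS11 at 153, 150 and 152 CPM. In U2OS-AsiSI they were 155, 151 and 146 against 140, 136 and 132 CPM. The groups were apart in each line, and the 3 siINTS11 libraries of U2OS-AsiSI were the lowest of all 12. On the TMM scale INTS4 fell by 0.13 in U2OS (SE 0.04, edgeR adjusted p 0.00393) and by 0.14 in U2OS-AsiSI (SE 0.04, edgeR adjusted p 0.0066), while library totals alone gave 0.07, called as higher (edgeR adjusted p 0.0491), and 0.05, not called. A mean of at least 50 counts also ended the call in U2OS-AsiSI (-0.09, edgeR adjusted p 0.0674). Between the lines the response differed by -0.05 (SE 0.06, 95% interval -0.16 to 0.07), which was not called and is also the median of all genes. INTS4 has near-identical partial copies, INTS4P1 and INTS4P2, and reads from them may be split between the copies, so its count is uncertain to that degree. On the TMM scale INTS4P1 fell by 0.27 in U2OS and by 0.31 in U2OS-AsiSI, and INTS4P2 fell by 0.56 and 1.19; with library totals alone only the value of INTS4P2 in U2OS-AsiSI was called (-1.01), and DESeq2 did not call INTS4P2 in U2OS (DESeq2 adjusted p 0.156).

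BRAT1, which binds the nuclease pair, differed from the 3 subunits in sign on the TMM scale (library totals alone made INTS9 and INTS4 positive too in U2OS). In U2OS it stood at 38.2, 38.9 and 38.7 CPM in the controls, and 43.0, 43.5 and 41.6 CPM after siINTS11. The controls lay within 1 CPM of each other and below every siINTS11 library. BRAT1 rose by 0.12 (SE 0.05, edgeR adjusted p 0.0283), or 8.34%. That call was lost with median-of-ratios size factors (0.10, edgeR adjusted p 0.058), with no count filter (0.11, edgeR adjusted p 0.0659), with DESeq2 (0.09, DESeq2 adjusted p 0.214), and without U2OS siINTS11 replicate 1 (0.11, edgeR adjusted p 0.0815) or replicate 2 (0.10, edgeR adjusted p 0.0981). In U2OS-AsiSI the levels were 44.9, 44.6 and 45.0 against 44.9, 47.3 and 48.8 CPM, which overlap. The value there was 0.07 (SE 0.05, 95% interval -0.03 to 0.18, edgeR adjusted p 0.194), and it was called with library totals alone (0.26) and with a mean of at least 50 counts (0.13). Without U2OS-AsiSI siINTS11 replicate 3 it was 0.04, and without its replicate 1 it was 0.11, neither called. BRAT1 is the member whose nascent RNA differed most between lines under siCtrl: 38.6 ± 0.344 CPM in U2OS and 44.9 ± 0.182 in U2OS-AsiSI (SD, n = 3), higher by 0.22 (SE 0.05, edgeR adjusted p 0.000723).

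In counts, 4 of 4 genes were called in U2OS (3 lower, 1 higher), where 66.9% of all 20687 genes tested were called, 32.4% lower and 34.5% higher. In U2OS-AsiSI 2 of 4 were called, both lower, against 68% of all genes (32.6% lower, 35.4% higher). In the fit over both lines 4 of 4 were called, against 73.7% (33.5% lower, 40.2% higher). A call was therefore the common outcome in these libraries, and the counts of the members stand near that background. In U2OS the libraries of 4 of 4 members did not overlap between siRNAs, against 69.4% of all genes, and in U2OS-AsiSI those of 3 of 4, against 71%. The difference between the lines was called for 0 of 4 by edgeR and by DESeq2, against 3.87% of all genes called. In edgeR 2 unadjusted p-values were under 0.05 (INTS11 and INTS9). The median of all genes for this difference was itself -0.05, beside -0.13 for INTS9, -0.08 for BRAT1 and -0.05 for INTS4. That median was -0.02 with median-of-ratios size factors and 0.02 with a mean of at least 50 counts. Among all changes of U2OS, INTS11 stood at percentile 16.4 from the lowest, INTS4 at 36.3, INTS9 at 36.7 and BRAT1 at 58.2. In U2OS-AsiSI the percentiles were 36.8, 35.8, 29.6 and 53.5 in the same order of genes. INTS11 had the lowest value of the module in U2OS and stood beside INTS4 in U2OS-AsiSI.

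The direction of these small changes turns on how libraries are scaled. TMM placed the median change of all genes at 0.02 in U2OS and 0.03 in U2OS-AsiSI, and library totals alone placed it at 0.22 in both. The share of calls that were higher went with it, from 51.6% to 74.3% in U2OS and from 52.1% to 72.4% in U2OS-AsiSI. A change of scale shifts all genes nearly alike, so distances from the median gene are the same under both by construction. In U2OS they were -0.43 for INTS11, -0.14 for INTS9, -0.15 for INTS4 and 0.10 for BRAT1. In U2OS-AsiSI they were -0.25 for INTS9, -0.17 for INTS4, -0.16 for INTS11 and 0.04 for BRAT1. The choice of genes did move them: in U2OS-AsiSI BRAT1 lay at -0.04 with no count filter and at 0.10 with a mean of at least 50 counts, INTS9 at -0.33 and -0.19, INTS4 at -0.25 and -0.11, and INTS11 at -0.24 and -0.10. The yeast RNA added to each sample was not analysed here, so whether the total output of nascent RNA differed was not measured.

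**Figure D2:**
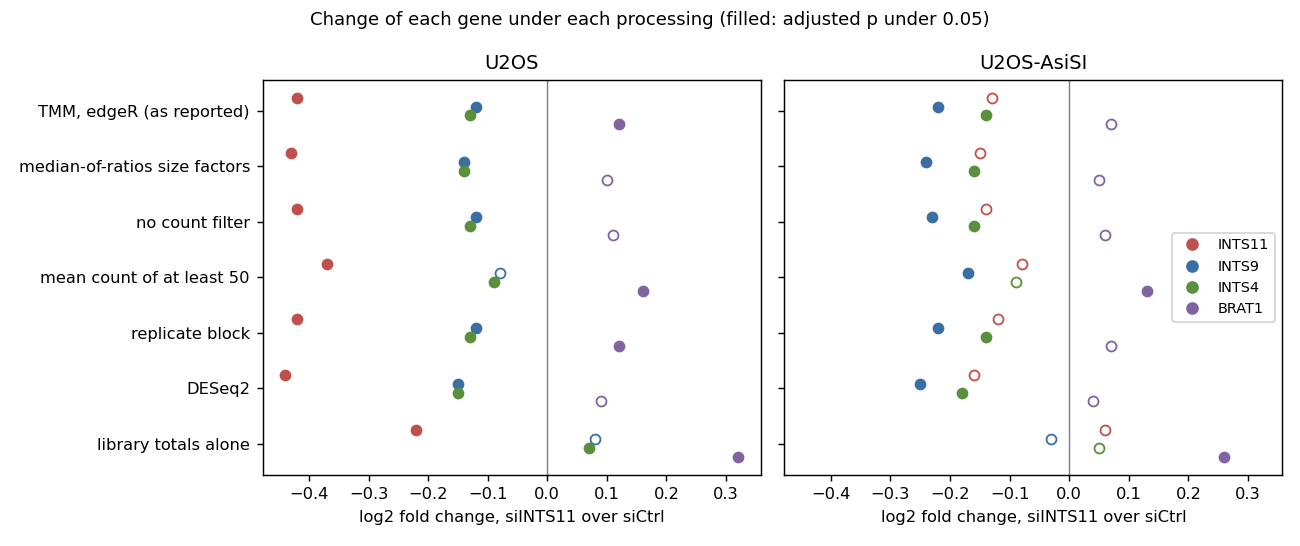
Log2 fold change of siINTS11 over siCtrl for the 4 genes under each processing, in U2OS and U2OS-AsiSI; filled points have an adjusted p under 0.05. In U2OS, INTS11 is at -0.44 to -0.22 over these settings, while INTS9 and INTS4 are below 0 except with library totals alone, where they are at 0.08 and 0.07.

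Ratios between the genes within a library do not depend on scaling. INTS11 reads per BRAT1 read were 0.264, 0.228 and 0.261 in U2OS with siCtrl and 0.183, 0.162 and 0.173 with siINTS11. All 3 siINTS11 libraries were below all 3 controls. In U2OS-AsiSI the ratios were 0.215, 0.246 and 0.219 against 0.201, 0.197 and 0.194, apart but close. The mean log2 ratio changed by -0.54 and -0.19. INTS11 per INTS4 changed by -0.30 in U2OS, with no overlap, and by 0.01 in U2OS-AsiSI, with overlap. INTS11 per INTS9 changed by -0.30 and by 0.09, the last with overlap.

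The ratio of the partners of the nuclease had log2 values of 0.01 in U2OS and -0.08 in U2OS-AsiSI. INTS9 reads per INTS4 read were 0.659 ± 0.012 and 0.663 ± 0.0166 in U2OS (siCtrl, then siINTS11; SD, n = 3) and 0.668 ± 0.0125 and 0.633 ± 0.016 in U2OS-AsiSI (SD, n = 3). The U2OS groups overlapped and those of U2OS-AsiSI did not, at 0.654 to 0.679 against 0.619 to 0.650. INTS4 reads per BRAT1 read were 4.12, 4.15 and 4.35 in U2OS controls and 3.57, 3.44 and 3.65 with siINTS11. In U2OS-AsiSI they were 3.44, 3.39 and 3.25 against 3.11, 2.88 and 2.71. The long scaffold gene thus had fewer reads per BRAT1 read after siINTS11 in both lines, with log2 values of -0.24 and -0.22 and no overlap within a line. These ratios were described and not tested.

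**Figure D3:**
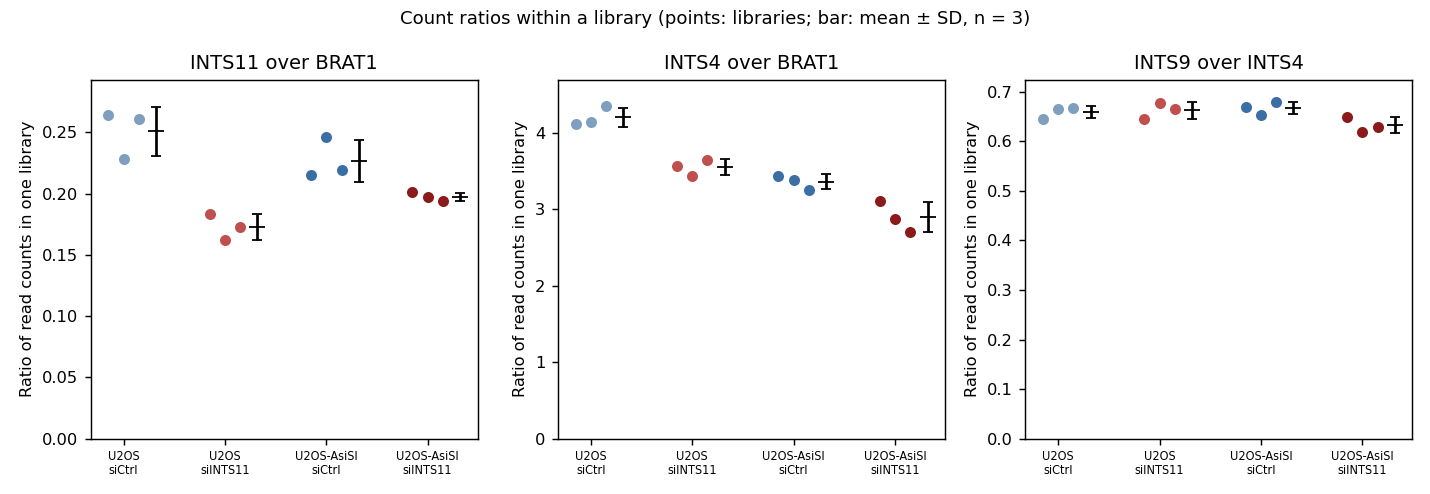
Ratios of read counts within each library (linear axes from 0) for INTS11 over BRAT1, INTS4 over BRAT1 and INTS9 over INTS4, by group; points are libraries and bars are mean ± SD of 3. The first 2 ratios are lower with siINTS11 in both lines, and INTS9 over INTS4 lies between 0.619 and 0.679 in all 12 libraries.

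Between the lines, the 2 comparisons share libraries with those above. With siCtrl, 1 of 4 genes was called (BRAT1, higher in U2OS-AsiSI), against 34.9% of all genes (17.8% higher, 17.2% lower), and 2 of 4 did not overlap between the lines (BRAT1 and INTS4), against 44.9%. INTS4 had a value of -0.11 (SE 0.04, edgeR adjusted p 0.0508), INTS9 had -0.09 (SE 0.04) and INTS11 0.08 (SE 0.09). INTS4 was called without U2OS siCtrl replicate 1 (-0.12, edgeR adjusted p 0.0432) or U2OS-AsiSI siCtrl replicate 1 (-0.13, edgeR adjusted p 0.0198). INTS9 was called without U2OS siCtrl replicate 1 (-0.12, edgeR adjusted p 0.0493) and had -0.05 without its replicate 3. INTS11 had 0.02 without replicate 2 of either control group. With siINTS11, 4 of 4 were called, against 43.6% of all genes (22.2% higher, 21.4% lower), and 4 of 4 did not overlap, against 52.9%. INTS11 (0.37) and BRAT1 (0.18, SE 0.05) were higher in U2OS-AsiSI, and INTS9 (-0.18, SE 0.04) and INTS4 (-0.12, SE 0.04) were lower. In this comparison the short genes of the module were higher and the long genes lower, and a link to gene length was not tested. In the siRNA comparisons on the TMM scale the short INTS11 had values below 0 in both lines, as the long INTS9 and INTS4 did. The call of INTS4 was lost with library totals alone (-0.07, edgeR adjusted p 0.11), with the replicate block (-0.12, edgeR adjusted p 0.0537), without U2OS siINTS11 replicate 1 (edgeR adjusted p 0.0734), without its replicate 3 (0.0502) and without U2OS-AsiSI siINTS11 replicate 3 (0.0752).

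Genes beside the members were examined because reads were counted over the whole gene span and the strand setting of the counting is not given in the sources used here. Beside INTS11, no neighbour was called in U2OS. CPTP, whose start lies 64 bases from that of INTS11, had -0.03 (SE 0.13) in U2OS and -0.05 (SE 0.11) in U2OS-AsiSI, and ACAP3, which lies downstream on the same strand, had -0.05 (SE 0.11) and 0.12 (SE 0.10), none called. PUSL1, a pseudouridine synthase gene that overlaps the end of INTS11 by 93 bases on the other strand, had -0.02 (SE 0.16) in U2OS and rose by 0.31 in U2OS-AsiSI (SE 0.13, edgeR adjusted p 0.0386), a call lost with DESeq2 (0.27, DESeq2 adjusted p 0.262). Inside INTS11 on its own strand lie MIR6727 and AL139287.1, both with 0 counts in all 12 libraries. Together they cover 8.96% of its span, and whether INTS11 reads were dropped there was not tested.

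INTS9 shares its start region with HMBOX1, a homeobox gene that binds telomeric repeats, with 152 bases between the starts. HMBOX1 levels were 289, 293 and 305 CPM against 248, 246 and 264 in U2OS, and 281, 267 and 264 against 233, 213 and 211 in U2OS-AsiSI. No library overlapped between siRNAs, as for INTS9. On the TMM scale HMBOX1 fell by 0.26 (SE 0.04) and 0.30 (SE 0.05), and with library totals alone it had -0.06, not called, and -0.11, called. The divergent pair thus had values of the same sign on the TMM scale, with HMBOX1 the farther from 0 in each line; the difference between the genes was not tested.

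INTS4 runs into AAMDC, a gene that overlaps 39.7 kb of it on the other strand. AAMDC rose in both lines, from 23.5 ± 0.951 to 30.7 ± 0.861 CPM in U2OS (SD, n = 3; 0.36, SE 0.06, edgeR adjusted p 3.5e-07) and from 16.6 ± 0.122 to 23.1 ± 0.485 CPM in U2OS-AsiSI (SD, n = 3; 0.48, SE 0.06, edgeR adjusted p 4.12e-08). AP002812.2, a transcript on the same strand as INTS4 whose start lies downstream of the end of INTS4, fell by 0.68 (SE 0.10) and by 0.54 (SE 0.07). The genes around INTS4 therefore changed in both directions and by more than INTS4 itself.

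BRAT1 lies between LFNG, which codes for a glycosyltransferase of the Notch pathway, and IQCE, a gene for a protein of the primary cilium. IQCE starts 3277 bases from the start of BRAT1 on the other strand. Its levels were 48.8, 47.4 and 50.1 CPM against 32.5, 30.5 and 32.8 in U2OS, and 46.0, 50.4 and 44.6 against 28.9, 25.1 and 31.2 in U2OS-AsiSI. IQCE fell by 0.64 (SE 0.05) and 0.72 (SE 0.06), while LFNG rose by 0.19 (SE 0.05) and 0.45 (SE 0.05); these calls for IQCE, LFNG, AAMDC and AP002812.2 kept their direction with library totals alone. BRAT1 thus had the value nearest 0 of the 3 neighbouring genes in both lines.

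**Figure D4:**
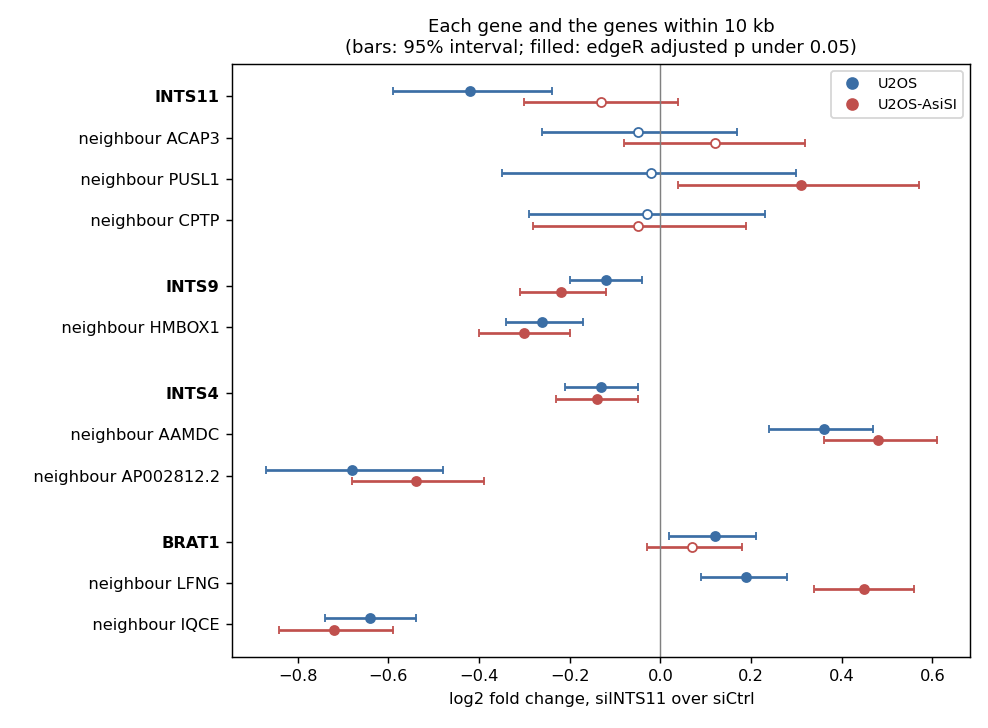
Log2 fold change of siINTS11 over siCtrl (TMM scale, 95% interval) for each member and for genes within 10 kb with a mean of at least 10 counts, in U2OS and U2OS-AsiSI; filled points have an edgeR adjusted p under 0.05. Neighbours of INTS4 and BRAT1 lie on both sides of 0, HMBOX1 lies at -0.26 and -0.30 beside INTS9, and CPTP lies at -0.03 and -0.05 beside INTS11.

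The other Integrator subunits changed in both directions on the TMM scale. Of 15 listed, PPP2CA, the catalytic subunit of the phosphatase that Integrator carries, had 0 counts in all 12 libraries and lies wholly under other genes on its strand, and 14 were tested. In U2OS 6 rose and 4 fell (median -0.04, against 0.02 over all genes), and in U2OS-AsiSI 5 rose and 4 fell (median 0.02, against 0.03). With library totals alone 10 rose and 0 fell in each line (medians 0.16 and 0.21). On the TMM scale 34.5% of all genes were called higher and 32.4% lower in U2OS, and 35.4% and 32.6% in U2OS-AsiSI. C7orf26, the gene of INTS15, rose by 0.49 (SE 0.04) in U2OS, from 52.7, 50.6 and 48.9 to 73.7, 75.1 and 69.3 CPM, and by 0.51 (SE 0.05) in U2OS-AsiSI, from 59.2, 60.5 and 58.3 to 84.2, 84.4 and 84.3 CPM. INTS13, of the module that Integrator uses to bind other factors, rose by 0.50 (SE 0.04) and 0.27 (SE 0.05). INTS5, a structural subunit, rose by 0.34 (SE 0.09) and 0.46 (SE 0.08), with another gene covering 55.9% of its span on its strand. INTS6, which links the phosphatase, rose by 0.20 (SE 0.04) and 0.29 (SE 0.05). These 4 rose under each scaling tried.

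Ranked among the 18 tested genes of Integrator and BRAT1 by their change, INTS11 was the lowest in U2OS, INTS4 the 6th lowest and INTS9 the 7th. In U2OS-AsiSI INTS9 was the 3rd lowest, INTS4 the 5th and INTS11 the 6th, and INTS8 was the lowest (-0.29, SE 0.05; -0.10, not called, with library totals alone). The ranks of INTS4 and INTS11 there rest on values that differ by less than their SEs. The 3 subunits of the cleavage module thus lay in the lower part of the complex in both lines on the TMM scale, with BRAT1 12th from the lowest in each. Subunits outside the module lay there too. In U2OS INTS1 (-0.23), INTS8 (-0.18) and INTS12 (-0.16) were called and lay below INTS4 and INTS9. In U2OS-AsiSI INTS12 (-0.25, called) lay below all 3, as did INTS8. Another gene covers 37.9% of the span of INTS12 on its strand.

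**Figure D5:**
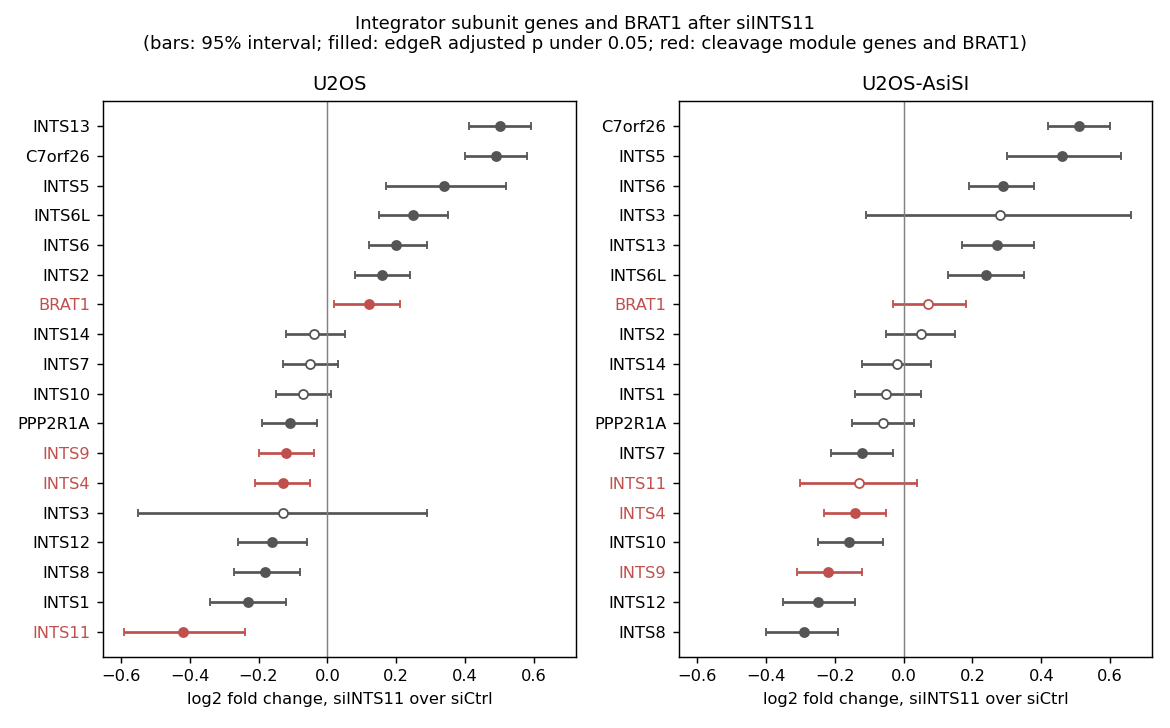
Log2 fold change of siINTS11 over siCtrl (TMM scale, 95% interval) for the 14 other Integrator subunits tested and the 4 genes described here (red), ordered within each line; filled points have an edgeR adjusted p under 0.05. INTS11 is at -0.42 in U2OS, the lowest of 18, and at -0.13 in U2OS-AsiSI, where its interval crosses 0; C7orf26 is at 0.49 and 0.51.

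Genes related to INTS11 by fold changed in both directions on the TMM scale. Of 8 metallo-beta-lactamase fold nuclease genes tested, 1 rose and 4 fell in U2OS and 2 rose and 4 fell in U2OS-AsiSI (median -0.09 in each). With library totals alone, 3 rose and 0 fell in each line. The TMM shares over all genes were 34.5% higher and 32.4% lower in U2OS, and 35.4% and 32.6% in U2OS-AsiSI. ELAC2, the nuclease that trims tRNA 3′ ends, rose by 0.28 (SE 0.04) and 0.21 (SE 0.05). CPSF2, the inactive partner in the polyadenylation machinery and so the counterpart of INTS9, had -0.21 (SE 0.04) and -0.21 (SE 0.05), both called, and -0.01 and -0.02 with library totals alone. CPSF3, the counterpart of INTS11, had -0.12 (SE 0.05, edgeR adjusted p 0.019) and -0.03 (SE 0.05, edgeR adjusted p 0.556), and with library totals alone 0.08, not called, and 0.16, called. DCLRE1C, the end-processing nuclease Artemis, had -0.28 (SE 0.04) and -0.16 (SE 0.05), and LACTB2, a mitochondrial RNase, -0.19 (SE 0.06) and -0.14 (SE 0.06); with library totals alone DCLRE1C had -0.08 and 0.04 and LACTB2 0.01 and 0.05.

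Of the partners of CPSF3 in cleavage and polyadenylation, 1 rose and 5 fell of 8 tested in U2OS (34.5% and 32.4% of all genes). In U2OS-AsiSI 0 rose and 4 fell of 9 tested (35.4% and 32.6% of all genes). With library totals alone, 3 rose and 2 fell, and 4 rose and 3 fell. CSTF3, a scaffold of the cleavage stimulation factor, fell from 224 ± 7.8 to 162 ± 0.508 CPM in U2OS (SD, n = 3; -0.49, SE 0.04) and from 232 ± 6.85 to 154 ± 5.95 CPM in U2OS-AsiSI (SD, n = 3; -0.59, SE 0.05). CPSF1, the largest CPSF subunit, fell by 1.11 (SE 0.15) and 0.53 (SE 0.13). Both fell under library totals as well. WDR33, which reads the polyadenylation signal, had -0.23 and -0.29, and CPSF4 -0.10 and -0.16, all called on the TMM scale, that of CPSF4 in U2OS narrowly (edgeR adjusted p 0.0459; DESeq2 adjusted p 0.0555); with library totals alone WDR33 had -0.03 and -0.10, and CPSF4 0.10 and 0.03. CSTF3 and CPSF1 thus had values farther below 0 than INTS11 in both lines; the difference was not tested.

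Of 4 genes linked to BRAT1, 0 rose and 2 fell in each line on the TMM scale (with library totals alone, 2 rose in each line and 1 fell in U2OS). The TMM shares of all genes were 34.5% higher and 32.4% lower in U2OS, and 35.4% and 32.6% in U2OS-AsiSI. BRCA1 had -0.33 (SE 0.04) and -0.19 (SE 0.04), and ATM, the kinase of the double-strand break response, -0.20 (SE 0.04) and -0.24 (SE 0.05), all called; with library totals alone BRCA1 had -0.13 and 0.00, and ATM 0.00 and -0.05. SMC1A, a cohesin subunit, had -0.06 (SE 0.04) and -0.05 (SE 0.04), and WDR73, a partner of the Integrator and BRAT1 proteins, 0.00 (SE 0.05) and 0.07 (SE 0.05), none called. BRCA1 and ATM were thus below 0 on the TMM scale, and SMC1A and WDR73 stood near 0. Other genes cover 17.4% of the span of BRCA1 on its strand. BRAT1 had 0.12 in U2OS and 0.07 in U2OS-AsiSI, the second not called and the same value as WDR73 there.

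The genes whose levels over the 12 libraries were most like each member were sought among 13557 genes with a mean of at least 100 counts, by Pearson's r of scaled log2 CPM. The libraries share 4 groups and 1 scaling, so an r describes mainly these groups. For INTS11 they were HYOU1 (r = 0.96), an endoplasmic reticulum chaperone, GTPBP1 (0.95) and KIF1C (0.95), a kinesin. HYOU1 had values of -0.90 and -0.36 in U2OS and U2OS-AsiSI, KIF1C -0.28 and -0.06, and GTPBP1 -0.21 and -0.09. For INTS9 they were SUCLA2 (0.99), ZNF638 (0.98) and ZNF148 (0.98), with values from -0.12 to -0.18 in U2OS and from -0.20 to -0.31 in U2OS-AsiSI. For INTS4 they were SCAI, NARS2 and RSBN1L (0.99 each), and for BRAT1 MFSD2A (0.98), TOP1MT (0.97) and ULBP3 (0.97), which had 0.25 to 0.41 in U2OS and 0.15 to 0.37 in U2OS-AsiSI. These genes were picked by their r in these same libraries, so their likeness in values follows from the choice. Those most like INTS9 and INTS4 span 86564 to 292233 bases, and those most like INTS11 and BRAT1 span 8069 to 55596 bases. The spans of all 13557 genes were not compared, and a link to gene length was not tested. Among the members, r was 0.97 between INTS9 and INTS4, -0.82 between INTS9 and BRAT1, -0.89 between INTS4 and BRAT1, and -0.04 to 0.04 between INTS11 and each of the others. Over all groups INTS9 and INTS4 thus followed each other, with BRAT1 opposite to them, and INTS11 followed none of them. The r of INTS11 takes in differences between lines as well as between siRNAs. Within each line, INTS11, INTS9 and INTS4 all had values below 0 after siINTS11 on the TMM scale.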

How the data were processed

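The 12 TT-seq libraries were grouped and numbered by their titles. The authors deposited unnormalised read counts for each gene symbol, with coordinates, per the file headers. Per the submitters' processing notes, Trimmomatic 0.36, STAR 2.7, deepTools and featureCounts were used with hg38; the strand setting is not given in the sources used here. Counts cover the whole gene span, since the length given equals the span. Each of the count columns was matched to 1 sample. Identifiers and exons came from GENCODE release 29, and promoters from RefSeq (GRCh38.p14).

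Testing used edgeR 4.0.16 under R 4.3.3 (filterByExpr, TMM, robust glmQLFit, two-sided glmQLFTest) with Benjamini-Hochberg adjustment over all genes tested, on the 6 libraries compared, or on all 12 for both lines together (with line as a term) and for the difference between lines (the interaction). Each SE is the size of the log2 value divided by the root of its F statistic. Levels come from the 12-library scaling. DESeq2 1.42.0, other scalings and filters, a replicate block and leaving out each library were tried. The test was also run on simulated data in which few genes changed, unlike here, so that run does not address the choice of scaling. Figures used matplotlib 3.10.9.

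Named were the 4 genes, up to 4 per list by adjusted p over both lines, neighbours within 10 kb with at least 10 mean counts, and 3 most alike genes each. CPSF3, INTS1, INTS8, INTS12 and the overlapping genes at 0 were chosen after their values were seen. The members and lists were chosen with earlier results of these data known. No molecular identifiers are given, so reads may not be independent molecules. Replicates with the same number did not deviate together throughout (r from -0.34 to 0.45 over gene deviations). The highest r was that of replicate 1 in U2OS-AsiSI, between siCtrl and siINTS11. Numbers were therefore not taken as pairs.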

Additional observations from a re-analysis of the deposited data

Results flagged for a closer look

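By the test of the difference between the lines, 3.87% of all genes were called, 668 lower and 164 higher in U2OS-AsiSI. The median over all genes was -0.05. Of the 14 other Integrator subunits tested, the 1 called was INTS13. Its levels rose from 41.0 ± 0.67 to 59.2 ± 1.71 CPM in U2OS and from 43.5 ± 1.1 to 52.5 ± 2.52 CPM in U2OS-AsiSI (SD, n = 3), and U2OS-AsiSI minus U2OS gave a log2 difference of -0.26 (SE 0.07), with an edgeR adjusted p of 0.0204. The call was lost with median-of-ratios size factors (-0.23, edgeR adjusted p 0.0722), with no count filter (-0.21, 0.123), with a mean count of at least 50 (-0.19, 0.0809) and with DESeq2 (-0.23, DESeq2 adjusted p 0.0699). Leaving out 1 library at a time gave -0.28 to -0.21, and the call was lost without U2OS siCtrl replicate 3 (edgeR adjusted p 0.117), U2OS siINTS11 replicate 1 (0.0572) or 3 (0.0997), U2OS-AsiSI siCtrl replicate 2 (0.084), and U2OS-AsiSI siINTS11 replicate 3 (0.114).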

How the results depend on the processing

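INTS11 in U2OS kept its direction and its call under all alternatives (-0.47 to -0.22), and in U2OS-AsiSI it was called under none. With library totals alone, INTS9 and INTS4 turned to 0.08 and 0.07 in U2OS (edgeR adjusted p 0.0598 and 0.0491), INTS11 and INTS4 to 0.06 and 0.05 in U2OS-AsiSI, and INTS9 and INTS4 to 0.03 and 0.06 over both lines; INTS9 in U2OS-AsiSI was -0.03, INTS11 over both lines -0.08 (neither called), and BRAT1 in U2OS-AsiSI was called at 0.26. With a mean count of at least 50, INTS9 in U2OS (-0.08) and INTS4 in U2OS-AsiSI (-0.09) were not called and BRAT1 in U2OS-AsiSI was (0.13). BRAT1 in U2OS was not called with median-of-ratios size factors (0.10), no count filter (0.11) or DESeq2 (0.09), nor over both lines with the first and last (0.07 each). The cause was not tested. Leaving out 1 library gave -0.15 to -0.08 for INTS9 and 0.10 to 0.13 for BRAT1 in U2OS. The difference of INTS4 between lines, -0.05, was 0 with no filter and 0.02 where genes needed a mean of 50 counts. Genes called for that difference numbered 832, against 447 (median-of-ratios), 394 (DESeq2) and, leaving out 1 library, from 286 (without U2OS siINTS11 replicate 3) to 946 (without U2OS siCtrl replicate 2), and the share of them called higher in U2OS-AsiSI was 19.7%, against 39.6% with median-of-ratios, 56.6% with no filter and 67% with that minimum of 50. With the replicate block that count was 531 and no call of the 4 genes after siINTS11 changed; INTS4 between the lines under siINTS11 was -0.12 (edgeR adjusted p 0.0537). INTS4 between the lines under siCtrl was called with median-of-ratios (-0.12) and a mean count of at least 50 (-0.10). At 212 to 351 reads per library INTS11 has the widest intervals of the 4 genes.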
